A study of Homo sapiens with 2 samples.

Results

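Nuclear-encoded subunits of respiratory complex I are described here across the transcriptome of FTC-133 cells in which CHI3L1 was silenced. FTC-133 is an established human line from a follicular thyroid carcinoma, and CHI3L1 encodes a secreted glycoprotein of the chitinase family that lacks chitinase activity. The groups were FTC-133 cells that received siRNA against CHI3L1 (1 library) and FTC-133 cells that received a control siRNA (1 library). The members are the protein-coding genes whose symbol begins with NDUFA, NDUFB, NDUFC, NDUFS or NDUFV, without the NDUFAF assembly factors and NDUFA4L2. This gave 38 of the 19362 genes in the deposited table, 7 core and 31 accessory subunits, and 37 of the 38 had a mean of at least 1 CPM (read counts scaled to a common library total) over both libraries. NDUFA7, at 0.769 CPM in the CHI3L1 siRNA library and 0.885 CPM in the control siRNA library, did not.

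Complex I (NADH:ubiquinone oxidoreductase) is the largest enzyme of the mitochondrial respiratory chain. It takes electrons from NADH at the tip of a hydrophilic arm in the matrix, passes them along a chain of iron-sulfur clusters to ubiquinone, and pumps protons through an arm in the inner membrane. Core subunits, conserved from bacteria, carry the flavin, the clusters and the quinone site on the matrix arm, while the proton-pumping core subunits are made from mitochondrial DNA. Accessory subunits were added in evolution around this core, and many are small proteins needed for assembly or stability of the complex.

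The siRNA target CHI3L1 stood at 48.6 CPM in the CHI3L1 siRNA library and at 140.0 CPM in the control siRNA library. The libraries held 19467345 reads after CHI3L1 siRNA and 15837449 reads after control siRNA, as worked back from the deposited values. Of 8 thyroid markers, 6 were in the table and 4 passed 1 CPM, among them PAX8 and NKX2-1. TG, the gene of thyroglobulin, stayed under 1 CPM in each library. All 4 epithelial markers passed 1 CPM, and they summed to 86.2 CPM in the CHI3L1 siRNA library and 86.4 CPM in the control siRNA library. Single markers went different ways. EPCAM had 4.0 CPM and 2.02 CPM, KRT8 55.9 CPM and 51.8 CPM, CDH1 1.59 CPM and 1.08 CPM, and KRT18 24.7 CPM and 31.6 CPM, in the same order. Fibroblast markers summed to 49.7 CPM and 60.7 CPM in the CHI3L1 and control siRNA libraries, with 3 of 4 past 1 CPM. Most of these sums was LUM, at 40.2 CPM and 51.8 CPM in the CHI3L1 and control siRNA libraries. Endothelial markers summed to 5.69 CPM and 8.79 CPM in the CHI3L1 and control siRNA libraries. Of 4 leukocyte markers 1 was measured, PTPRC, under 1 CPM in each. The part of other cell types in the results was not tested. With 1 library per group there was no replicate spread, no p-value could be had, and each statement below compares these libraries. The genes share those libraries and are not replicates of a condition. Ratios carry 95% exact (Clopper-Pearson) intervals from the reads, which cover counting error only.

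Most accessory subunit genes were lower after CHI3L1 silencing in the deposited values, and most core genes did not pass the size rule used here. Short genes were more often lower in the whole table. Once a trend in length and GC content was subtracted, 8 of 37 members were lower, all of them accessory, beside 6.12% of coding genes. The medians were then −0.18 over the members, −0.03 for the core and −0.20 for the accessory genes. A gene is called lower or higher here when its log2 fold (CHI3L1 siRNA over control siRNA, with 1 CPM added to each value) passed 1.5-fold. By this rule 23 of the 37 members were lower, 0 were higher and 14 did not pass, beside 13.4% of all 14815 tested genes that were lower and 7.73% that were higher. By 2-fold 11 members were lower (beside 4.41% of all tested genes) and 0 higher (1.03%), and by 3-fold 4 were lower (0.911%) and 0 higher (0.081%). The 1.5-fold lower calls were 21 of 30 accessory and 2 of 7 core genes. The median log2 fold was −0.71 over the members and 0.01 over all tested genes. It was −0.31 for the core, with a lowest value of −0.85, and −0.76 for the accessory genes, which ranged from −1.91 to 0.16. The values of core and accessory genes overlapped, and the medians differed by 0.45. In RNA from whole cultures, fewer cells of a kind and less RNA per cell cannot be told apart.

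**Figure D1:**
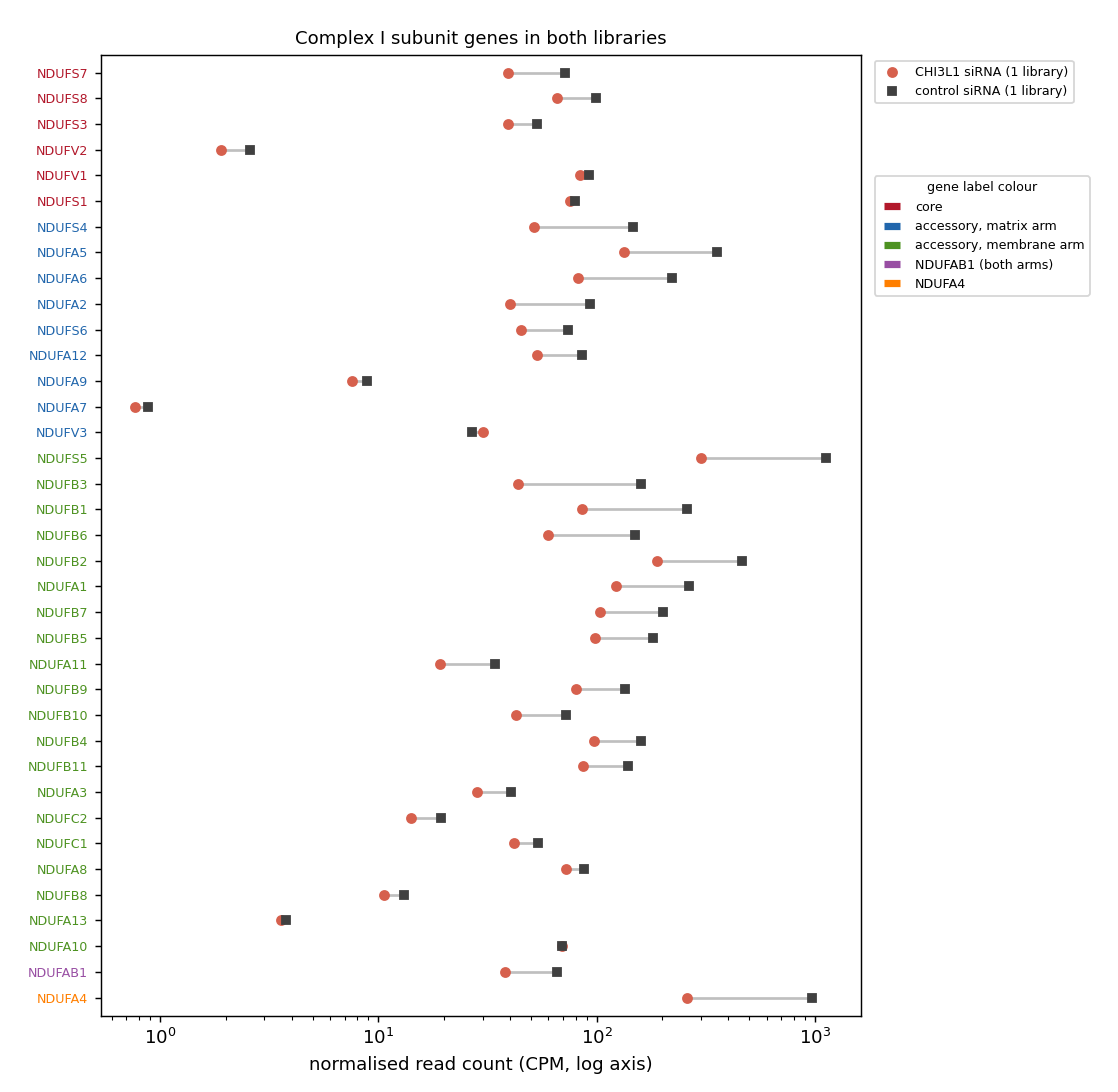
Normalised read count (CPM, log axis) of 37 complex I genes in the CHI3L1 siRNA library (circles) and the control siRNA library (squares), with gene labels coloured by place in the complex. NDUFV3 is the plotted gene with the circle to the right of the square, and the longest lines belong to NDUFS5, NDUFA4 and NDUFB3.

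Promoter sequences are shown for some members that were lower and some that did not pass, with core and accessory genes in each case. Each is the RefSeq window of GRCh38.p14 around the annotated start, printed 5′ to 3′ on the gene's strand. Capitals mark matches, on either strand, to letters bound by known regulators of respiratory chain genes: GCGCA, any base and GCGC for NRF1, CCGGAAG for the ETS factor GABPA, AAGATGGC for YY1 and AAGGTCA for the ERR receptors.
NDUFB3, an accessory gene with 1 of the lowest folds and no match:
NDUFB3 promoter (chr2:201071751-201072050, plus strand): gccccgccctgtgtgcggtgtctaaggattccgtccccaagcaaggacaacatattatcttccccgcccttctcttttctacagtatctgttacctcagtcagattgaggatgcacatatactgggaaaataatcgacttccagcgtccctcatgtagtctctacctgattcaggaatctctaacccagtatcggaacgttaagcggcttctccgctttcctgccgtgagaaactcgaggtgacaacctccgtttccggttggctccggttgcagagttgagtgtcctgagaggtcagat
NDUFS4, the accessory matrix-arm gene with the lowest fold, with a YY1 match:
NDUFS4 promoter (chr5:53560389-53560688, plus strand): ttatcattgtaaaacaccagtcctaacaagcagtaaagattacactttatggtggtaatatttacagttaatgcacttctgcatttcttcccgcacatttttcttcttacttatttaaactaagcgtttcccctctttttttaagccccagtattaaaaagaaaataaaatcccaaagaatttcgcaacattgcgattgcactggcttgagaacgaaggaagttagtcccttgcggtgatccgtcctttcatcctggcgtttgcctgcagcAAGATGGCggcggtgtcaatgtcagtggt
NDUFA8, an accessory gene that did not pass, with overlapping NRF1 matches:
NDUFA8 promoter (chr9:122159730-122160029, minus strand): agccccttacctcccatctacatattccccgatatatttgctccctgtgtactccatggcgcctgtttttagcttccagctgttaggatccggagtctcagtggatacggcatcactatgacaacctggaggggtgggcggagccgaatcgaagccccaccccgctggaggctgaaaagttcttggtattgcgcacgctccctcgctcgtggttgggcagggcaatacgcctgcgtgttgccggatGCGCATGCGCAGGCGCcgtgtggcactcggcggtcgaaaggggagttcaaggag
NDUFS7, the core gene with the lowest fold, with ERR and YY1 matches:
NDUFS7 promoter (chr19:1383657-1383956, plus strand): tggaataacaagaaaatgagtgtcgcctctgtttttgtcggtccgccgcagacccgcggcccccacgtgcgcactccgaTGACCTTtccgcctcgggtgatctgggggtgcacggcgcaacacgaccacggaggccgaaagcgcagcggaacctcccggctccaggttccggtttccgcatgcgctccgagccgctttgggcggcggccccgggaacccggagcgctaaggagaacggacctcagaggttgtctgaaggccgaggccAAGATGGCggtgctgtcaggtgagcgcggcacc
NDUFS1, a core gene that did not pass, with an ETS match in the first of its 2 RefSeq entries:
NDUFS1 promoter (chr2:206159395-206159694, minus strand): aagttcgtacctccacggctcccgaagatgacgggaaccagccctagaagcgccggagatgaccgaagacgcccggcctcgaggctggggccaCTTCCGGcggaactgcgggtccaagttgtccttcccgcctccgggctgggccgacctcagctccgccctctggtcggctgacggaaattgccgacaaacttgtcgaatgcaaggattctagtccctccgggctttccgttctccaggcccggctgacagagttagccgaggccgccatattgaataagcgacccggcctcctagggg

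A promoter was found for 33 of the 38 members. NRF1 letters were in 6 of the 33 (18.2%), against 13.2% of 10112 tested coding genes with a promoter and 6.98% of all 27305 genes in the promoter table. YY1 letters were in 7 (21.2%, against 6.48% and 3.52%), and ERR letters in 4 (12.1%, against 3.72% and 4.8%). ETS letters were in 5 (15.2%, against 22.3% and 12.2%). The strings for ETS and YY1 can overlap by 3 letters, and no member promoter held both. The median log2 fold was −0.59 for the 6 members with NRF1 letters and −0.76 for the 26 without that passed the mean filter. For YY1 letters it was −0.68 with (6 members) and −0.70 without (26 members). For ETS letters it was −0.43 with (5 members) and −0.71 without (27 members), and for ERR letters −0.78 with (4 members) and −0.68 without (28 members). The YY1 string holds the letters ATG, and in NDUFS4 and NDUFS7 its match lies near the 3′ end of the printed window. Whether such matches fall on start codons of translation was not tested. A match describes letters in the window and does not show binding.

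Of the 7 core genes, NDUFS7 and NDUFS8 were called lower (28.6%). The share was 13.4% among all tested genes and 11.0% among coding genes with coding sequences as long as the core. After the trend in length and GC content neither passed, with log2 folds of −0.38 and −0.04. NDUFS7, whose product holds the last iron-sulfur cluster before ubiquinone (ENSG00000115286, chromosome 19, 1383527 to 1395589 in GRCh38), stood at 39.2 CPM in the CHI3L1 siRNA library and 71.2 CPM in the control siRNA library. Its ratio was 0.55 (0.501 to 0.604), the lowest of the core. NDUFS8, another iron-sulfur subunit, stood at 65.7 CPM and 99.6 CPM in the CHI3L1 and control siRNA libraries. Its log2 fold of −0.59 lies at the 1.5-fold line, and the counting interval of its ratio (0.612 to 0.711) holds that line. NDUFS3, another core subunit of the matrix arm, had 39.4 CPM and 53.5 CPM in the CHI3L1 and control siRNA libraries. Its log2 fold of −0.43 did not pass.

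None of the 3 core genes of the NADH-oxidising tip passed 1.5-fold. NDUFV1, which binds NADH and the flavin FMN, had 84.2 CPM in the CHI3L1 siRNA library and 92.1 CPM in the control siRNA library, a ratio of 0.915 (0.852 to 0.982). NDUFS1, the largest core subunit, had 75.7 CPM and 79.5 CPM in the CHI3L1 and control siRNA libraries, and the interval of its ratio of 0.952 held 1 (0.882 to 1.03). NDUFV2, an iron-sulfur subunit at the tip, was counted at 37 reads after CHI3L1 siRNA and 41 reads after control siRNA, and its ratio of 0.732 was imprecise (0.456 to 1.17), with all of its coding sequence shared with another gene.

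Of 8 accessory genes of the matrix arm past the mean filter, 6 were lower by 1.5-fold, 0 were higher and the median log2 fold was −0.94, beside 13.4% lower and 7.73% higher among all tested genes. After the trend in length and GC content 2 of the 8 were lower (median −0.45), beside 6.12% of coding genes on that scale. NDUFS4, a subunit near the tip whose loss causes Leigh syndrome, had the lowest fold, at 51.7 CPM in the CHI3L1 siRNA library and 146 CPM in the control siRNA library (ratio 0.355, 0.329 to 0.382). NDUFA5, of the quinone-binding part of the arm, stood at 133 CPM and 354 CPM in the CHI3L1 and control siRNA libraries, a ratio of 0.375 (0.358 to 0.393). NDUFA6 belongs to the LYR family, whose members bind the acyl carrier protein NDUFAB1. It had 82.5 CPM after CHI3L1 siRNA and 221 CPM after control siRNA, a ratio of 0.373 (0.352 to 0.396). NDUFA2, with a thioredoxin-like fold, had a log2 fold of −1.19. NDUFS6, which binds zinc, and NDUFA12, also near the tip, had smaller differences, with log2 folds of −0.69 and −0.67. NDUFV3 had 30.1 CPM in the CHI3L1 siRNA library and 26.9 CPM in the control siRNA library, and the interval of its ratio of 1.12 held 1 (0.985 to 1.27). NDUFA9, which binds NADPH, had a log2 fold of −0.20, with 148 reads after CHI3L1 siRNA and 140 reads after control siRNA.

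Of 20 accessory genes of the membrane arm, 13 were lower by 1.5-fold and 0 were higher, beside 13.4% lower and 7.73% higher among all tested genes. All 20 log2 folds lay below 0 in the deposited values, from −1.91 to −0.01. Below 0 also lay 7235 of 14815 tested genes, and 527 of 599 coding genes with transcripts of up to 1000 nt. After the trend 5 of the 20 were lower (median −0.16), beside 6.12% of coding genes on that scale. Above 0 lay 6 of the 20, beside 7264 of 12660 coding genes. NDUFS5 (ENSG00000168653, chromosome 1, 39026318 to 39034636) had the most reads of any member. It stood at 299 CPM in the CHI3L1 siRNA library and 1126 CPM in the control siRNA library, a ratio of 0.265 (0.258 to 0.273). NDUFS5 is 1 of 4 members with paired cysteines that are oxidised on import into the intermembrane space, and the 4 spread widely. The others had log2 folds of −0.97 (NDUFB7), −0.73 (NDUFB10) and −0.28 (NDUFA8). NDUFA8 stood at 72.3 CPM and 87.8 CPM in the CHI3L1 and control siRNA libraries and did not pass.

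The NDUFB genes, whose products cluster in the distal part of the membrane arm, were lower in 10 of 11 cases, with a median log2 fold of −0.88, beside 13.4% of all tested genes and 37.3% of coding genes with coding sequences shorter than the shortest core subunit. After the length and GC trend described below, 4 of the 11 were lower (median −0.23), beside 6.12% of coding genes on that scale. NDUFB3 (ENSG00000119013, chromosome 2, 201071433 to 201085750), whose promoter is printed above, had 43.5 CPM in the CHI3L1 siRNA library and 160.0 CPM in the control siRNA library, a ratio of 0.272 (0.251 to 0.294). NDUFB1 had 85.3 CPM and 260.0 CPM in the CHI3L1 and control siRNA libraries, and NDUFB2 had 189 CPM after CHI3L1 siRNA and 465 CPM after control siRNA. Both were thus more than 2-fold apart, as was NDUFB6, with 59.9 CPM after CHI3L1 siRNA and 150.0 CPM after control siRNA. The log2 folds of NDUFB5, NDUFB9 (a LYR protein), NDUFB4 and NDUFB11 were between −0.88 and −0.68. NDUFB8, the exception, had 207 reads in each library, which with the different depths is a ratio of 0.811 (0.666 to 0.988).

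The other membrane-arm genes were mixed. NDUFA1, a small subunit that complex I assembly depends on, had 122 CPM in the CHI3L1 siRNA library and 265 CPM in the control siRNA library, a log2 fold of −1.11. NDUFA11 had a log2 fold of −0.80 and was also called lower. NDUFA3 (log2 fold −0.51), NDUFC2 (−0.43) and NDUFC1 (−0.37) did not pass. NDUFA13, also known as GRIM-19, had 70 reads after CHI3L1 siRNA and 60 reads after control siRNA, and the interval of its ratio of 0.946 was wide (0.661 to 1.36). NDUFA10, which has the fold of a nucleoside kinase, was level, at 69.1 CPM in the CHI3L1 siRNA library and 69.5 CPM in the control siRNA library, a ratio of 0.994 (0.917 to 1.08).

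NDUFAB1 and NDUFA4 stand apart from these places in the complex. NDUFAB1, the mitochondrial acyl carrier protein, is found in each arm and also serves fatty acid synthesis in the matrix. It had 37.9 CPM in the CHI3L1 siRNA library and 65.8 CPM in the control siRNA library, a ratio of 0.575 (0.523 to 0.633). NDUFA4 (ENSG00000189043, chromosome 7, 10931951 to 10940256), which the naming rule takes, is now assigned to cytochrome c oxidase. It had 259 CPM and 965 CPM in the CHI3L1 and control siRNA libraries, a ratio of 0.268 (0.26 to 0.277). Without it, 22 of 36 members were lower and the median was −0.70.

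**Figure D2:**
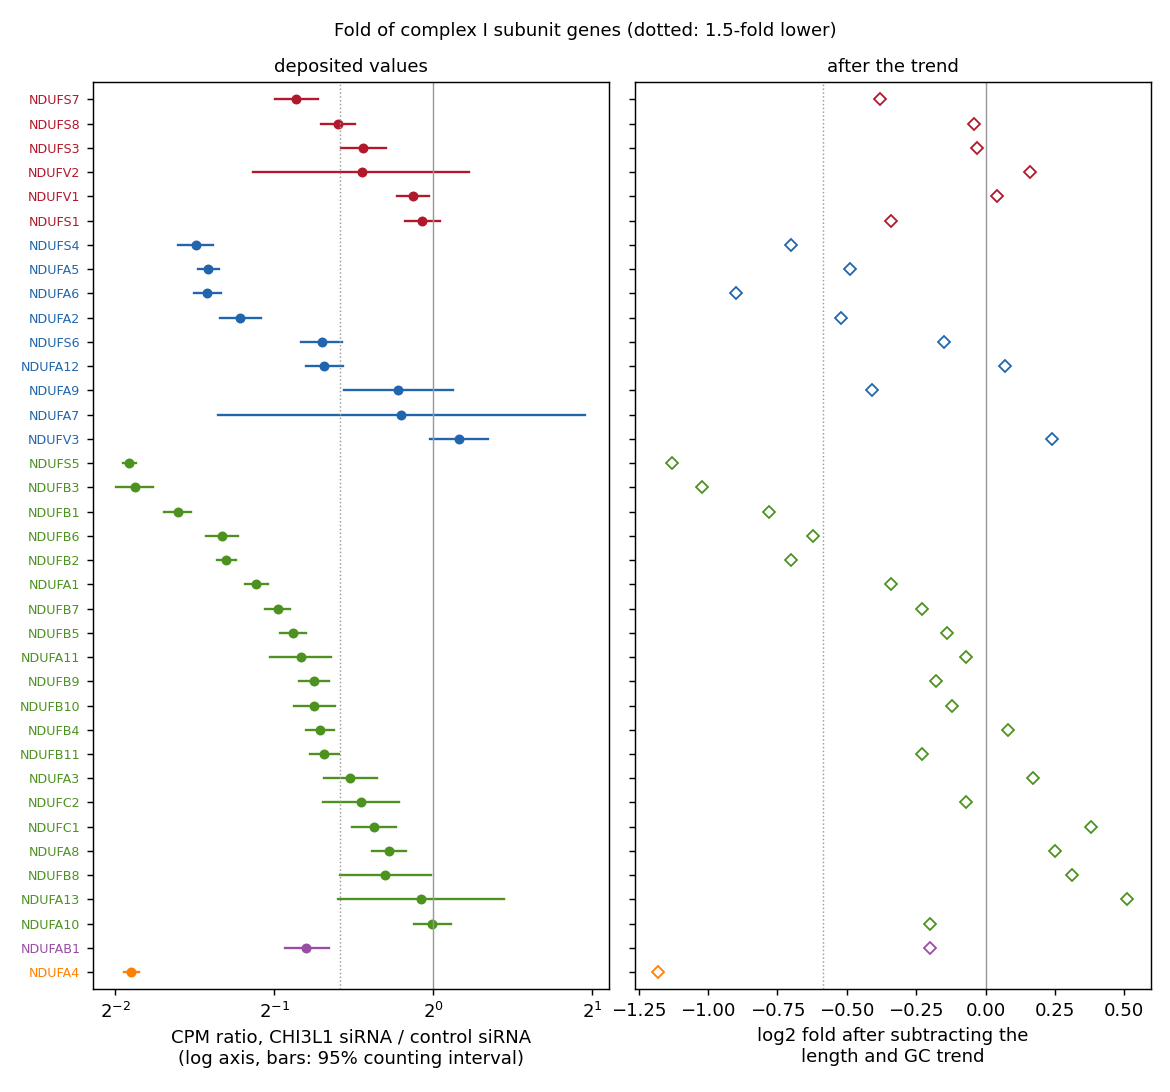
Left, CPM ratio of CHI3L1 siRNA over control siRNA for 37 members (log axis) with its 95% counting interval; right, log2 fold after a trend in transcript and coding length and GC content was subtracted, with no value for NDUFA7. The dotted line marks 1.5-fold lower, which 23 of the plotted genes pass in the deposited values (with 1 CPM added) and 8 after the trend, and gene colours are those of the plot of CPM by library.

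The sums over the 38 members include NDUFA4, now assigned to cytochrome c oxidase. The members took 0.269% of reads in the CHI3L1 siRNA library and 0.613% in the control siRNA library. The summed ratio was 0.438 (0.433 to 0.443). For the core genes it was 0.833 (0.807 to 0.861), with 382 CPM in the CHI3L1 siRNA library and 458 CPM in the control siRNA library. For the accessory genes it was 0.406 (0.401 to 0.411), with 2305 CPM and 5678 CPM in the CHI3L1 and control siRNA libraries. Core genes thus made up 14.2% of the members' reads after CHI3L1 siRNA and 7.47% after control siRNA. NDUFS5 and NDUFA4 weighed heavily in the sum. Without this pair, the summed ratio was 0.526 (0.52 to 0.533) over the other 36 members. The accessory ratio was then 0.487 (0.481 to 0.494), with 1748 CPM in the CHI3L1 siRNA library and 3588 CPM in the control siRNA library. A sum without NDUFA4 alone was not computed.

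Core and accessory genes differ in length, and folds followed length in the whole table. The coding sequences of the core measured 630 to 2181 nt and those of the accessory subunits 210 to 1131 nt. Across 12660 tested coding genes with an annotated transcript, Spearman's rho of log2 fold with coding length was 0.46, and it was 0.55 across the 37 members. These are descriptions across genes of the same 2 libraries. Among coding genes with a coding sequence shorter than the shortest core subunit, 37.3% were lower by 1.5-fold, against 21 of 28 such accessory genes (75%). Among those as long as the core (630 to 2181 nt), 11.0% were lower, against 2 of 7 core genes (28.6%). Only NDUFA9 and NDUFA10 among the accessory genes are that long, and their log2 folds were −0.20 and −0.01. With accessory genes limited to this pair, the accessory median was −0.10 and the core median was lower by 0.21, so the direction between core and accessory turned round. After the trend it did not, with an accessory median of −0.30 for the pair and a core median of −0.03. Most of the coding sequence of NDUFA9 is shared with another gene, and its fold is uncertain.

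By transcript length the members stood as follows. Of 21 members with transcripts of at most 1000 nt, 14 were lower (66.7%) and 0 higher, against 52.1% lower and 2.17% higher among coding genes of that length. Of 9 members above 1000 and up to 2000 nt, 8 were lower (88.9%) and 0 higher, against 23.4% and 2.81%. Of 7 members with longer transcripts, 1 was lower (14.3%) and 0 higher, against 7.15% and 10.3%, and the lower one was NDUFA4. NDUFS1, NDUFA9, NDUFA10, NDUFC2 and NDUFV3 were among those that did not pass.

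**Figure D3:**
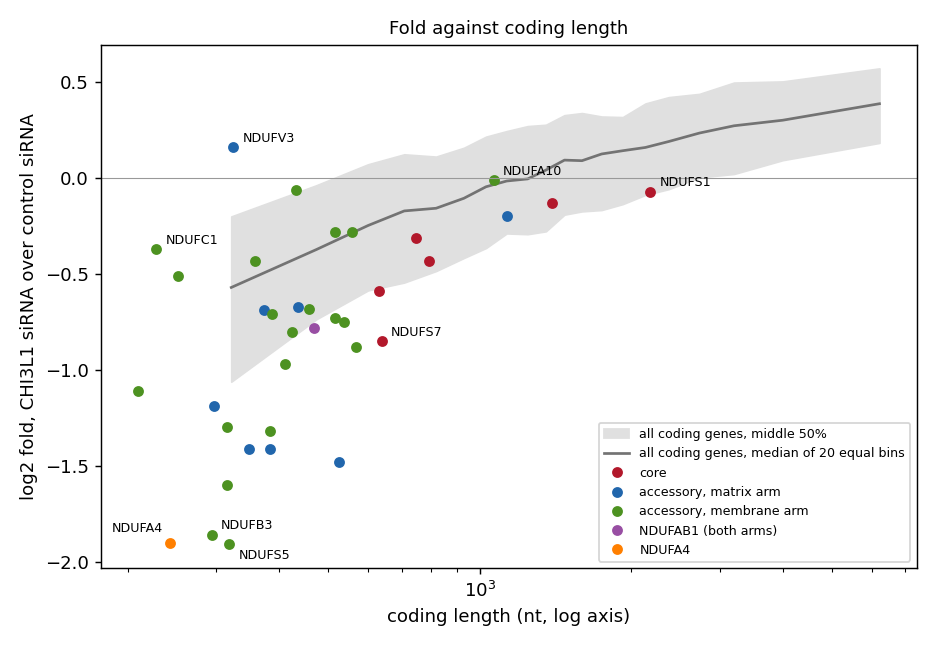
Log2 fold of CHI3L1 siRNA over control siRNA against coding length (nt, log axis) for 36 members past the mean filter, over the median (line) and middle 50% (band) of all tested coding genes in 20 bins of equal size. NDUFS5, NDUFA4 and NDUFB3 have coding lengths of 318, 243 and 294 nt and the lowest folds, while NDUFV3 lies above 0.

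After subtraction of a trend in transcript and coding length and GC content, 8 of 37 members were lower by 1.5-fold and 0 higher, beside 6.12% of 12660 coding genes that were lower and 7.71% that were higher on the same scale. The trend was fitted to 12565 coding genes outside the lists and took up 35.6% of their variance in fold. The 8 were NDUFA4 (−1.18), NDUFS5 (−1.13), NDUFB3 (−1.02), NDUFA6 (−0.90), NDUFB1 (−0.78), NDUFS4 (−0.70), NDUFB2 (−0.70) and NDUFB6 (−0.62), all accessory and all also lower in the deposited values. The core median was then −0.03, and NDUFS7, at −0.38, had the lowest core value. The accessory median was −0.20, against 0.07 over all coding genes after the trend, and the medians of core and accessory genes differed by 0.17. The trend itself stood at −0.78 for NDUFS5, −0.71 for NDUFA4 and −0.84 for NDUFB3.

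Folds were also set beside the members' levels. The 4 members that averaged 200 CPM or more (NDUFS5, NDUFA4, NDUFB2 and NDUFA5) were lower, with log2 folds between −1.91 and −1.30, beside 21.6% of 806 tested genes at that level. Spearman's rho of log2 fold with mean CPM was −0.68 across the 37 members and −0.64 after the trend, against 0.06 and 0.04 across all coding genes. Of the 4, NDUFB2 and NDUFA5 reach that mean only through the control siRNA library, so the 4 calls are partly fixed by the choice of level. Level and fold come from the same values here, and these are descriptions. The levels also lay closer together after CHI3L1 siRNA. Per kb of transcript, the 31 members whose coding sequence is not shared with another gene ranged from 6.4 to 545 CPM per kb in the CHI3L1 siRNA library and from 5.75 to 2054 CPM per kb in the control siRNA library. The SD of their log2 levels per kb was 1.32 after CHI3L1 siRNA and 1.77 after control siRNA. The spread of other genes and the spread after the trend were not computed. Coding genes with transcripts of up to 1000 nt had a median log2 fold of −0.62 in the whole table. The narrower spread is thus not shown to be particular to complex I. Levels per kb also depend on the transcript chosen, which measures 11819 nt for NDUFS1, the lowest member after CHI3L1 siRNA.

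**Figure D4:**
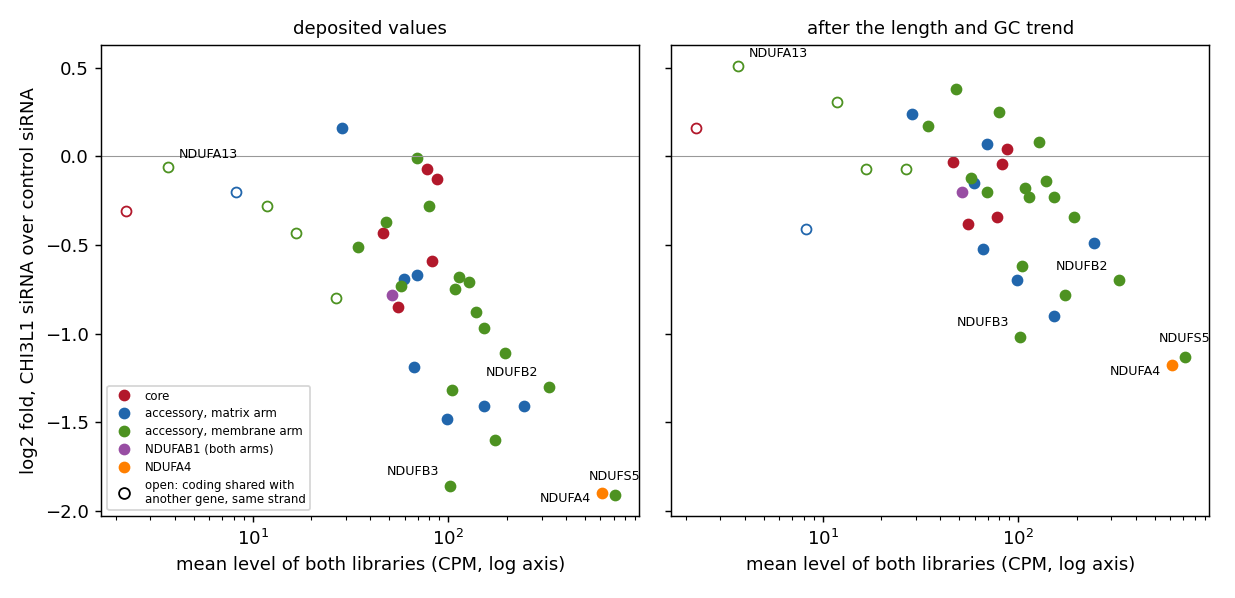
Log2 fold of CHI3L1 siRNA over control siRNA against the mean level of both libraries (CPM, log axis) for 36 members, in the deposited values (left) and after the length and GC trend (right). Open circles are the 6 members past the mean filter whose coding sequence lies mostly within same-strand exons of another gene, all at the low end of the levels, and NDUFS5 and NDUFA4 lie at the high end with folds below −1 in each panel.

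For 7 members, 74% to 100% of the coding sequence lies within same-strand exons of another annotated gene (GENCODE release 29), and the other 31 had none. The 7 are NDUFV2, NDUFA7, NDUFA13, NDUFC2, NDUFA9, NDUFB8 and NDUFA11. The read-through gene NDUFC2-KCTD14, which overlaps NDUFC2, is not analysed here. The median level of the 7 was 3.62 CPM per kb in the CHI3L1 siRNA library and 3.83 CPM per kb in the control siRNA library, against 62.4 and 116 CPM per kb for the other 31 in the CHI3L1 and control siRNA libraries. Reads in shared exons cannot be assigned to 1 gene by position alone, so the levels and folds of these 7 are uncertain. Their part in the core and accessory medians can be read from the values without them, which were −0.28 for 6 core genes and −0.88 for 25 accessory genes. Exons on the opposite strand also overlap members, up to 45.8% of the transcript for NDUFB11 (with RBM10) and 44.5% for NDUFA1 (with RNF113A), and no source used here gives the strand setting of the counting. Pseudogenes were searched by the same symbol starts, but without leaving out NDUFAF names. Of 59 annotated pseudogenes found, 1 was in the table, NDUFV2P1, with 1 read after CHI3L1 siRNA and 11 reads after control siRNA.

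The 7 complex I subunits encoded in mitochondrial DNA all had log2 folds above 0, from 0.28 to 0.66, and of the 7 MT-ND6 alone passed 1.5-fold. Among all tested genes, 7580 of 14815 lay above 0 and 7.73% were higher by 1.5-fold. MT-ND6 stood at 843 CPM in the CHI3L1 siRNA library and 534 CPM in the control siRNA library, and MT-ND4 at 4410 CPM and 3325 CPM in the CHI3L1 and control siRNA libraries. These proton-pumping and quinone-site subunits thus lay on the other side of 0 from 35 of the 37 nuclear members, and they were left out of the trend.

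Complex I is built from modules with the help of assembly factors that do not stay in the enzyme. Of 19 assembly factor genes, 10 were lower by 1.5-fold, 9 did not pass and 0 were higher (median log2 fold −0.59), beside 13.4% lower and 7.73% higher among all tested genes. After the trend 5 were lower (median −0.35), beside 6.12% of coding genes. TMEM126B, of the complex that assembles the membrane arm, had 41.8 CPM in the CHI3L1 siRNA library and 148 CPM in the control siRNA library, a log2 fold of −1.80. DMAC1, which also acts on the membrane arm, had a log2 fold of −1.40. NDUFAF2, which holds the place of its paralog NDUFA12 during assembly, had 34.8 CPM and 88.3 CPM in the CHI3L1 and control siRNA libraries. NDUFAF8 had a log2 fold of −1.27, and at −0.42 after the trend it no longer passed. In contrast, ACAD9, a partner of TMEM126B in assembly, stood at 52.8 CPM after CHI3L1 siRNA and 47.5 CPM after control siRNA.

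Regulators of respiratory chain genes include transcription factors and their coactivators. Of 11 regulator genes, 1 was lower, 0 were higher and the median log2 fold was 0.05, a share of lower calls near the 13.4% of all tested genes. The lower one was TFAM, which packages mitochondrial DNA and helps to start its transcription, at 52.3 CPM in the CHI3L1 siRNA library and 90.7 CPM in the control siRNA library (log2 fold −0.78, and −0.55 after the trend, where it no longer passed). NRF1 had a log2 fold of 0.28 and PPARGC1A, the coactivator PGC-1alpha, of 0.33, and ESRRA one of −0.49.

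Complex II, the succinate dehydrogenase, also feeds ubiquinone, and its list here held the subunits SDHA to SDHD and the assembly factors SDHAF1 to SDHAF4. Of these 8 genes, 5 were lower by 1.5-fold and 0 higher (median −0.70), beside 13.4% lower and 7.73% higher among all tested genes. The 5 were the subunits SDHB and SDHD and the assembly factors SDHAF1, SDHAF3 and SDHAF4. After the trend SDHAF4, SDHAF3 and SDHC were lower, which is 3 of 8 beside 6.12% of coding genes, and SDHC (−0.56 in the deposited values) passed only there. SDHAF4 and SDHAF3, which help mature its subunits, had the lowest log2 folds, −1.33 and −1.18. SDHD, a membrane anchor, and SDHB, the iron-sulfur subunit, had −0.74 and −0.70, and with −0.07 and −0.34 after the trend they no longer passed. In the deposited values the flavoprotein gene SDHA had 12.6 CPM after CHI3L1 siRNA and 10.9 CPM after control siRNA. Of 4 measured genes for other enzymes that pass electrons to ubiquinone (GPD2, ETFDH, DHODH and SQOR), 0 passed 1.5-fold in either direction. COX7A2L, which joins respiratory complexes into supercomplexes, had a log2 fold of −0.81, and −0.09 after the trend. NDUFA4L2, the hypoxia-induced relative of NDUFA4 that the naming rule leaves out, was higher, with 51 reads after CHI3L1 siRNA and 21 reads after control siRNA, a ratio of 1.97 (1.16 to 3.45).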

How the data were processed

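RNA was extracted with Trizol and libraries were made with a TruSeq RNA kit from 1 ug of total RNA, per the labels' protocols. Whether a library came from 1 culture, the time after transfection and the siRNA sequences do not appear in any source used here. The authors deposited 1 table of normalised read counts in CPM for 19362 genes. FastQC, MultiQC, Trimmomatic, HISAT2, featureCounts and the build GRCh38 are named in the submitters' processing notes, without versions or roles. The annotation, normalisation tool and low-count filter are not given there. The values lay on steps of 0.0513 CPM (CHI3L1 siRNA) and 0.0632 CPM (control siRNA), so 100% of entries came out as whole reads within 0.01 read once an offset of 0.001 read was taken off. No count model was run, since each group has 1 library. A gene at 0 reads could hold up to 3, which is 0.154 CPM after CHI3L1 siRNA and 0.19 CPM after control siRNA.

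Symbols, positions and lengths came from GENCODE release 29 (GRCh38), which gave a symbol for 19360 IDs, with 1 principal transcript per coding gene. Log2 folds used a pseudocount of 1 CPM, which understates differences of low genes, and genes averaging 1 CPM or more entered counts. The trend used splines with 5 terms per property, of which 1 was left out in favour of a shared intercept. Steps were tested on simulated data and run in Python 3.11.15 with scikit-learn 1.9.0. Members and gene lists were chosen with earlier results of these data known. Named genes are the members (1 is not reported here individually or plotted, but entered counts, sums and medians), CHI3L1, mitochondrial ND genes and up to 4 called genes per pathway list by size of fold; other genes were named after their values were seen. Alternatives were other pseudocounts, scalings, mean filters and thresholds, the trend, and subsets of members.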

Additional observations from a re-analysis of the deposited data

How the results depend on the processing

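Without replicates, calls rest on size alone, and nothing could be paired. No paired analysis was possible because each group holds 1 library and the labels give no replicate numbers. Among the settings run, the difference between core and accessory medians (0.45) reversed only with accessory genes limited to coding sequences as long as the core, at −0.21, with an accessory median of −0.10 from 2 genes. That limit, and leaving out members with shared coding sequence (accessory median −0.88), were chosen after seeing the data. With the length and GC trend subtracted, the median of all members was −0.18, of core −0.03 and of accessory genes −0.20. The core and accessory medians then differed by 0.17, and 8 members were lower, beside 6.12% of coding genes on that scale. At a mean of at least 100 CPM, 14 accessory and 0 core genes were tested, so the core had no value. All 14 were lower, with a median of −1.31, but 8 of them reach that mean only through the control siRNA library, so the filter itself favours lower genes. The share of all genes lower at that mean was not computed. At a mean of at least 200 CPM it was 21.6%. A pseudocount of 10 CPM gave a core median of −0.12. Among transcripts of at least 1000 nt, 9 of 16 members were lower, the core median was −0.10 and the difference 0.68. Of all coding genes with transcripts over 1000 and up to 2000 nt 23.4% were lower, and of those with longer ones 7.15%. Without members that overlap another gene in the table, 14 of 21 were lower, beside 13.4% of all tested genes. Thresholds of 2-fold and 3-fold left 11 and 4 members, beside 4.41% and 0.911% of all tested genes. A trimmed mean of log ratios moved none of these values, and the median log2 fold of all tested genes was 0.01 with and without it. The deposited columns sum to 998506 CPM (CHI3L1 siRNA) and 1001495 CPM (control siRNA), so such a scaling may already be in them. In that case this setting could not move the values and is no separate check.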
